A study of Homo sapiens with 42 samples.

Results

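MV4;11 cells recovered from mice given MS41 or vehicle gave 6 of the 42 libraries of the series, 3 per treatment, and these were chosen by the column names of the deposited in vivo table. MV4;11 is a human myeloid leukaemia line that carries a fusion of MLL (KMT2A) with AF4. MS41 is a small molecule that marks ENL, the protein encoded by MLLT1, for degradation. Both in vivo groups are labelled wild type, and the control mice received vehicle. The dose, the schedule, the host strain and age of the mice, and the organ from which the cells came are not given in the sources used here, and neither is whether a replicate is 1 mouse or a pool. Other MV4;11 libraries are set beside the mice: MV4;11 cells in culture with MS41 at 100 nM or with DMSO for 6 or 24 h, 12 libraries in all, and 6 libraries of MV4;11 cells that carried a control guide or either of the 2 guides against ENL. The in vivo RNA was amplified with a SMART-Seq kit for low input, whereas the other libraries followed standard Illumina protocols, so levels are compared within a table and not between tables.

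ENL reads acetylated histones through its YEATS domain. It is part of the super elongation complex and of complexes with the histone methyltransferase DOT1L, which act on transcribing RNA polymerase II, and MLL fusion proteins bring these complexes to HOXA9, MEIS1 and other genes of blood progenitors. In leukaemias with MLL fusions, loss of ENL is known to lower those genes and to let the cells mature. MLL binds DNA through a CXXC domain, which its fusions keep and which recognises unmethylated CG dinucleotides.

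In the mice 7 genes passed an adjusted p of 0.05, and all 7 were lower with MS41: HMX2, HMX3, HOXA9, PITX1, CXorf21 (now named TASL), ZFP36L2 and CPEB2. The 300-base windows around the start that RefSeq gives these genes (GRCh38.p14) are shown for 5 of them, from the most to the fewest CG dinucleotides, in capitals, on the strand of the gene.
CPEB2: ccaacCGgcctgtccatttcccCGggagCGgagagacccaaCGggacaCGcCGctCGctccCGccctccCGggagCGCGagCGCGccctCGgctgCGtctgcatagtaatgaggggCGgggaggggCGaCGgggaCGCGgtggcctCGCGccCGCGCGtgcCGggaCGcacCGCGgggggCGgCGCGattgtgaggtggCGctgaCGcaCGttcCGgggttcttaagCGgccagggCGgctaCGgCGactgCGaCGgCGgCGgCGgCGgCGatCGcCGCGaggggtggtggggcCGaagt
HMX3: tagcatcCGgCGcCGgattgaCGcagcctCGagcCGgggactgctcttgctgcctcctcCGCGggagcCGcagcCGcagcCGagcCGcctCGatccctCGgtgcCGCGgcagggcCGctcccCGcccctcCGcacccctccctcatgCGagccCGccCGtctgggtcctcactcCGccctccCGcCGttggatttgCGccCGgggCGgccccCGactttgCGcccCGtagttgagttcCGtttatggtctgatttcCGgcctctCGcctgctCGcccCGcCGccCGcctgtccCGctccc
HMX2: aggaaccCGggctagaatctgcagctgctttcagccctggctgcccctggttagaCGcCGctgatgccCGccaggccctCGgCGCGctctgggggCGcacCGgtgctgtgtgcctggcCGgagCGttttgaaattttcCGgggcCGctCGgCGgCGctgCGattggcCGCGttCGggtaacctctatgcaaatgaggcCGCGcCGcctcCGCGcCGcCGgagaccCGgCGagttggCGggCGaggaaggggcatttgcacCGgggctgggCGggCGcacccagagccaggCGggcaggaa
HOXA9: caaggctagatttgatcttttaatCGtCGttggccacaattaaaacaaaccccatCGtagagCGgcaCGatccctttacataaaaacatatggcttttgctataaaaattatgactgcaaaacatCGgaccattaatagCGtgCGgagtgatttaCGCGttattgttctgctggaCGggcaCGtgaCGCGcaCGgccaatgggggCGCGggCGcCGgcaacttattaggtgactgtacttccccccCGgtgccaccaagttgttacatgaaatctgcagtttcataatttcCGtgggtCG
TASL: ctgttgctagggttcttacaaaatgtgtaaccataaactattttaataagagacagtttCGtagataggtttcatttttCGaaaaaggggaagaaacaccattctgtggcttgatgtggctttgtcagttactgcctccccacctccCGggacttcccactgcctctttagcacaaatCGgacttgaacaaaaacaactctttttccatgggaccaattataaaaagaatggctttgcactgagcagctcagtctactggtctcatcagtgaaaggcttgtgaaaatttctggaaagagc
The windows lie at chr4:15002231-15002530 (plus strand, CPEB2), chr10:123135720-123136019 (plus strand, HMX3), chr10:123147886-123148185 (plus strand, HMX2), chr7:27165488-27165787 (minus strand, HOXA9) and chrX:30577717-30578016 (minus strand, TASL). They hold 51, 39, 35, 22 and 4 CG dinucleotides, a count that is the same on both strands. The windows of HMX2, HMX3 and TASL hold the start of the GENCODE gene too, whereas that of CPEB2 ends 144 bases upstream of it and those of PITX1 and HOXA9 begin 335 and 9393 bases downstream, the latter within the gene as GENCODE outlines it. The window of PITX1 (chr5:135034179-135034478, minus strand) holds 35. Over all 35116 windows of the table the median is 14, and 96.0% hold at least 1. As many as in CPEB2 are found in 1.01% of windows, as many as in HMX2 in 14.1%, as many as in HOXA9 in 37.7% and as many as in TASL in 75.5%. The windows of CPEB2, HMX3, HMX2, PITX1 and HOXA9 thus lie above the median in this respect, and that of TASL lies below it. ZFP36L2 was not matched in this table.

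HMX2 and HMX3 encode homeodomain transcription factors and are neighbours on chromosome 10, with 10380 bases between their annotated ends. HMX2 (ENSG00000188816, chr10:123148122-123150672) had 15.6, 20.3 and 22.3 counts per 1000000 (CPM) in the vehicle libraries and 8.23, 6.57 and 5.93 CPM in the MS41 libraries, in the order of the replicate numbers. Each MS41 library was below each vehicle library, and the mean fell from 19.4 ± 3.44 to 6.91 ± 1.19 CPM (SD, n = 3), to 35.6% of vehicle. The log2 fold change was -1.49 (SE 0.16, 95% interval -1.85 to -1.13) with an edgeR adjusted p of 0.0143, a value that all 7 called genes share. HMX3 (ENSG00000188620, chr10:123135962-123137741) had 22.1, 25.6 and 27.6 CPM with vehicle and 14.2, 12.4 and 11.5 CPM with MS41. It fell to 50.5% of vehicle, with a log2 fold change of -0.99 (SE 0.12). In culture HMX2 was at -1.21 after 6 h and -0.98 after 24 h of MS41, and HMX3 at -0.88 and -0.21, all with adjusted p-values under 0.05.

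HOXA9 and PITX1 are homeobox genes too; HOXA9 is the best known target of MLL fusions and drives self-renewal of myeloid progenitors. HOXA9 (ENSG00000078399, chr7:27162435-27175180) had 34.8, 38.2 and 42.6 CPM with vehicle and 22.7, 20.8 and 18.6 CPM with MS41. The groups did not overlap, and HOXA9 fell by 0.90 on the log2 scale (SE 0.10, interval -1.12 to -0.67), to 53.7% of vehicle. PITX1 (ENSG00000069011, chr5:135027735-135034813) had 351, 356 and 410 CPM with vehicle and 234, 231 and 200 CPM with MS41, again without overlap. Its log2 fold change was -0.75 (SE 0.08, interval -0.93 to -0.56). Both were called lower in culture too: PITX1 was at -1.85 after 6 h and -1.52 after 24 h, and HOXA9 at -1.59 and -1.5. Whether the size differs between mice and culture was not tested.

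CXorf21, ZFP36L2 and CPEB2 are the called genes outside the homeobox family. CXorf21 encodes an adaptor of endolysosomal Toll-like receptor signalling, and its CPM were 285, 288 and 329 with vehicle against 198, 195 and 171 with MS41 (log2 fold change -0.68, SE 0.08). ZFP36L2, an RNA-binding protein that promotes decay of mRNAs with AU-rich elements, had 609, 654 and 674 CPM with vehicle and 437, 406 and 397 CPM with MS41 (-0.64, SE 0.07). CPEB2, which binds the polyadenylation elements of mRNAs and regulates their translation, had 133, 150 and 152 CPM against 101, 90.1 and 89.4 CPM (-0.63, SE 0.07). In none of these genes did the groups overlap. CXorf21 is at chrX:30558824-30577844, ZFP36L2 at chr2:43222402-43226609 and CPEB2 at chr4:15002674-15070153.

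**Figure D1:**
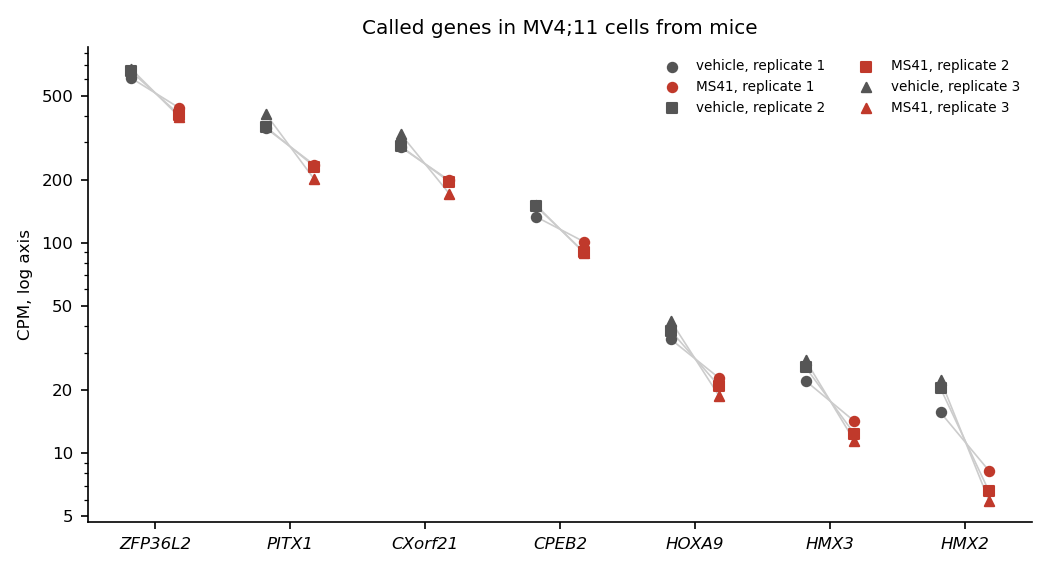
CPM (log axis) of the 7 called genes in each in vivo library; grey symbols are vehicle, red symbols MS41, the shape gives the replicate number and lines join libraries of the same number. For every gene the 3 MS41 symbols lie below the 3 vehicle symbols, and the line of replicate 3 falls most.

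These 7 genes are 0.0328% of the 21323 genes tested; the share called higher is 0%, since no gene passed in that direction. At an unadjusted p under 0.05, 741 genes were lower (3.48%) and 882 higher (4.14%). All 7 fell in each of the 3 pairs of libraries with the same replicate number, least in pair 1 and most in pair 3. HMX2, for example, was at -0.92 in pair 1, -1.63 in pair 2 and -1.91 in pair 3. In these adjusted values, groups that do not overlap and 3 pairs of the same sign are nearly the same observation. Over all genes, 3232 were lower without overlap and 3241 were lower in all 3 pairs. A lack of overlap is thus no evidence beyond the pairs, here and in the other paragraphs. With replicate 3 left out no gene was called, while 794 genes were higher and 903 lower at an unadjusted p under 0.05, and all 7 still had negative values. DESeq2 with the replicate term called 69 genes (26 higher and 43 lower) and limma-voom 18 (6 higher and 12 lower), both with the 7 genes among them, and an exact permutation test over 3 pairs cannot go below a two-sided p of 0.25.

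The next genes in the order of p missed the threshold, though some passed it under other settings. With limma-voom the adjusted p was 0.0238 for RREB1, 0.0221 for CDKN1B and 0.0243 for MYB; with the non-robust edgeR fit it was 0.0498 for RREB1 and 0.0302 for CDKN1B; with DESeq2 RREB1 and MYB passed and CDKN1B did not (0.0827). RREB1, a zinc finger factor downstream of RAS signalling, had a log2 fold change of -0.53 and an adjusted p of 0.0537. CDKN1B, the cell cycle inhibitor p27, had 86.9, 107 and 112 CPM with vehicle and 64.6, 53.8 and 51.5 CPM with MS41. These groups do not overlap, and its log2 fold change was -0.85 (SE 0.11, adjusted p = 0.0537). MYB, a transcription factor that MLL-fusion leukaemias need, had 603, 610 and 679 CPM with vehicle and 468, 460 and 415 CPM with MS41 (-0.49, SE 0.07, adjusted p = 0.0628). TRGV9, a variable segment of the T-cell receptor gamma locus, was at -0.82 (adjusted p = 0.0683). Of the 19 segments of that locus that were tested, 14 had a negative value, the median was -0.32, and 6 were lower and 0 higher at an unadjusted p under 0.05 (background 3.48% and 4.14%). The groups did not overlap in 6 segments that were lower and 4 that were higher (background 15.2% and 14.8%); the segments resemble each other, so reads may be split between them. LAMP5-AS1 (-0.63, adjusted p = 0.0683) overlaps LAMP5 (-0.40, adjusted p = 0.0998) on the other strand, and whether the counting used strand is not given in the sources used here.

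The MLL target list holds 28 genes, of which 24 passed the filter on low counts. PITX1, HOXA9, HMX3 and CPEB2 were called lower and 0 higher, against 0.0328% and 0% of all genes tested. The count of members called lower was 2 with the GC trend removed, 2 without replicate 2, 0 without replicate 3, 5 with limma-voom, 11 with DESeq2 and 13 with no filter on low counts. Over all genes tested, these fits called 5, 10, 0, 12, 43 and 109 lower, in the same order. The median over the 24 was -0.35, beside -0.0011 over all genes tested, and 21 of the 24 had a negative value. At an unadjusted p under 0.05, 15 were lower and 0 higher (background 3.48% and 4.14%). In 16 of them each MS41 library was below each vehicle library, where the background is 15.2% of all genes tested; 0 were higher without overlap (background 14.8%). The median was -0.24 in pair 1, -0.38 in pair 2 and -0.55 in pair 3. The genes of the list were chosen with their behaviour in earlier results of these data known, so the count describes them and is no independent evidence of the direction.

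Single targets differed in size. HOXA10, which shares 4590 bases of annotation with HOXA9, had 20.3, 21.2 and 21.7 CPM with vehicle and 17, 16.3 and 15.9 CPM with MS41. Its log2 fold change was -0.36 (interval -0.55 to -0.17, adjusted p = 0.379), beside -1.23 at 6 h and -1.52 at 24 h in culture. MEIS1, the cofactor of HOXA9, had 99.9, 128 and 131 CPM with vehicle and 98.8, 79.3 and 78 CPM with MS41. The pair of replicate 1 was almost level (-0.02) while the other pairs were at -0.69 and -0.74, and the fit gave -0.49 (adjusted p = 0.458). MYC, the growth regulator, had 61.6, 52.9 and 75.2 CPM against 40.2, 45.7 and 32.0 CPM. Its pairs ranged from -0.21 to -1.23, and the fit gave -0.69 with an adjusted p of 0.379.

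BAHCC1, a chromatin reader, was at -0.45 (adjusted p = 0.166), SATB1, an organiser of chromatin loops, at -0.55, and the transcription factors MEF2C at -0.34, RUNX2 at -0.36 and ZEB2 at -0.31, with adjusted p-values of 0.349, 0.349, 0.337 and 0.408 from SATB1 to ZEB2. FLT3, the receptor tyrosine kinase that MV4;11 cells carry in an activated form, had 396, 406 and 380 CPM with vehicle and 321, 312 and 335 CPM with MS41. The groups did not overlap, but its log2 fold change of -0.29 (interval -0.42 to -0.16) had an adjusted p of 0.338. CDK6, a cyclin-dependent kinase and known MLL-AF4 target, had 687, 753 and 723 CPM against 747, 679 and 712 CPM. Those values overlap, the interval was -0.16 to 0.12, and the culture values of -0.35 at 6 h and -0.38 at 24 h lie outside it. The culture values are point estimates, and the difference was not tested. HOXA4 and HOXA5 had positive values with means between 0.0644 and 0.137 CPM and unadjusted p-values of 0.532 and 0.453.

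Beside PITX1, the long noncoding RNA C5orf66-AS1 starts 4017 bases away on chromosome 5. It had 5.88, 5.32 and 5.90 CPM with vehicle and 3.24, 3.58 and 3.24 CPM with MS41 (-0.76, adjusted p = 0.233), and C5orf66 was at -0.69 (adjusted p = 0.349). Both had lower values in each of the 3 MS41 libraries, and in culture at 24 h they were at -1.43 and -1.34. IRX3, a homeobox gene expressed in acute leukaemias, was at -0.77 (adjusted p = 0.233) and PRDM8 at -0.96 (adjusted p = 0.349), both without overlap.

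Among 11 tested progenitor genes, 3 of which (FLT3, SOX4 and CDK6) are also on the MLL target list, 0 were called; DESeq2 called 3 lower and limma-voom 0. At an unadjusted p under 0.05, 7 were lower and 0 higher (background 3.48% and 4.14%), and the median was -0.27. BCL11A, a repressor active in progenitors, had 38.6, 32.7 and 40.6 CPM with vehicle and 24.4, 28.6 and 23.1 CPM with MS41 (-0.56, adjusted p = 0.233). ETV6 was at -0.27, GATA2 at -0.69 and SOX4 at -0.25, with adjusted p-values of 0.349, 0.469 and 0.473. KIT, the receptor of stem cell factor, was low, at 3.50 CPM with vehicle and 2.48 CPM with MS41, and its groups overlapped.

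The mRNA of the degraded protein showed no called difference. MLLT1 (ENSG00000130382, chr19:6210379-6279948) had 132, 125 and 142 CPM with vehicle and 131, 137 and 121 CPM with MS41. The log2 fold change was -0.04 (interval -0.20 to 0.12, adjusted p = 0.93). Since MS41 acts on the protein, this mRNA does not check the labels. MLLT3, which encodes the related reader AF9, had 1.39, 0.552 and 1.28 CPM with vehicle and 1.20, 2.57 and 1.45 CPM with MS41, and the groups overlapped. Of 17 genes for partners of ENL, 0 were called and the median was 0.01; the largest differences by p were PSIP1, the chromatin tether of MLL (0.17, adjusted p = 0.596), and AFF4, the scaffold of the super elongation complex (0.16, adjusted p = 0.609).

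Genes of myeloid maturation had no called member in mice; DESeq2 called 1 higher and limma-voom 0. Of 42 tested genes 21 had a positive value and 21 a negative one, and the median was -0.0017. At an unadjusted p under 0.05, 4 were higher and 2 lower (background 4.14% and 3.48%). In culture 37 of the 42 were called higher at 24 h (background 21.4%) with a median of 1.31, and 26 at 6 h (background 12%) with a median of 0.26; with the ENL guides 30 were called higher (background 5.33%). The difference between mice and culture was not tested.

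CYBB encodes the catalytic subunit of the phagocyte NADPH oxidase. Its CPM were 47.9, 41.1 and 48.7 with vehicle and 53.9, 62.5 and 53.2 with MS41, and each MS41 library was above each vehicle library. The log2 fold change was 0.30 with an interval of 0.10 to 0.50 and an adjusted p of 0.515, while at 24 h in culture it was 5.71. TLR4, the receptor of lipopolysaccharide, was at 0.33 (adjusted p = 0.355) and PRDM1, a regulator of terminal differentiation, at 0.56 (adjusted p = 0.5), and both had all 3 MS41 libraries above vehicle. FCGR1A, a high-affinity receptor of IgG, was at -0.29 (adjusted p = 0.379). LYZ, lysozyme, had 7874, 6596 and 7518 CPM with vehicle and 6343, 7598 and 6742 CPM with MS41. These ranges overlap, and the interval was -0.28 to 0.10. CSF1R, the receptor of macrophage colony-stimulating factor, had an interval of -0.20 to 0.09, beside 1.83 at 24 h in culture. For LSP1 and JAML, at 3.84 and 3.23 after 24 h in culture, the mice gave 0.08 and -0.07, from means between 0.796 and 1.38 CPM.

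Of 8 tested MHC class II genes, which present antigen on monocytes and other cells, 0 were called and 0 had an unadjusted p under 0.05. The median was -0.12 in mice and 2.11 at 24 h in culture, where 7 of the 8 were called higher (background 21.4%); reads of class II genes that resemble each other may be split between them. HLA-DRA, a chain of the class II molecule HLA-DR, had 4.12, 3.94 and 3.88 CPM with vehicle and 3.51, 3.66 and 3.73 CPM with MS41. Its interval in mice was -0.46 to 0.20 and its value at 24 h in culture 2.77. CIITA, the master regulator of these genes, had an interval of -0.58 to 0.29, beside 2.57 at 24 h in culture. The intervals of both lie wholly below the culture values, which are point estimates from another table. The difference between mice and culture was not tested.

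**Figure D2:**
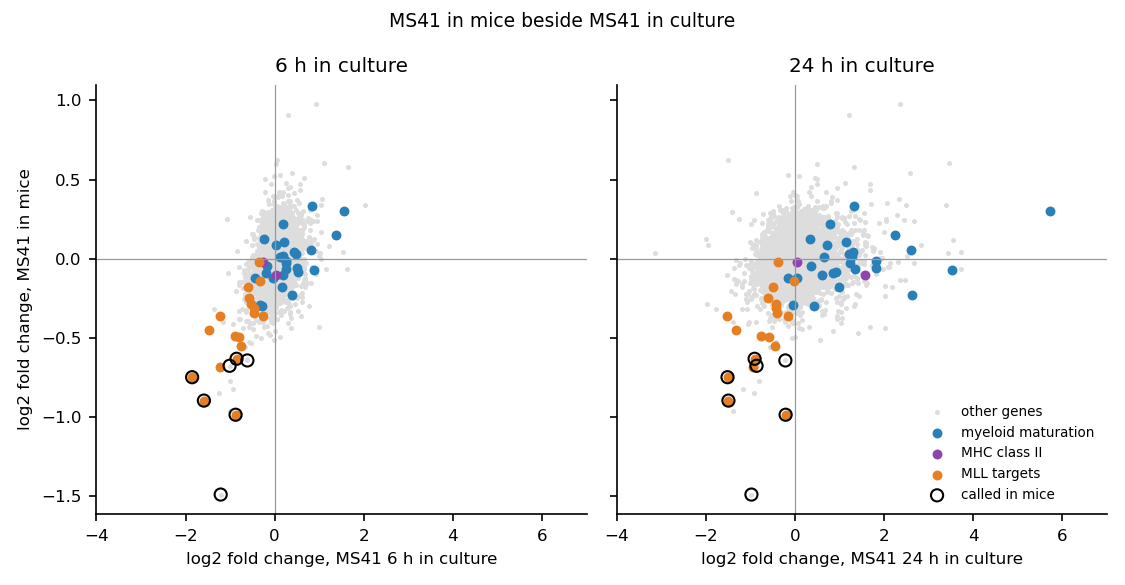
Log2 fold change with MS41 in mice (vertical axis) against that in culture after 6 h (left) or 24 h (right) for genes whose mean log2 CPM in mice was 3 or more; circles mark the genes called in mice and colours 3 gene lists. Most MLL targets lie below 0 on both axes, with CDK6 at -0.02 in mice, while maturation genes spread to the right at 24 h, up to 5.71 for CYBB, and lie on both sides of 0 in mice.

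The 43 genes that fell at least 2-fold after 6 h in culture had a median of -1.30 there and of -0.45 in mice. In mice 36 of the 43 had a negative value, and PITX1, HOXA9, HMX2 and CXorf21 were called lower (4 genes, background 0.0328%). In 20 the groups did not overlap in that direction (46.5%, background 15.2%). Of the 12 with a mean log2 CPM of 3 or more, 11 had a negative value and 10 did not overlap in that direction (background for genes of that level 17.3%). The 230 genes that rose at least 2-fold after 6 h had a median of 1.38 there and of 0.105 in mice. In mice 131 of the 230 had a positive value (57.0%), and 42 did not overlap in that direction (18.3%, background 14.8%). Of the 13 with a mean log2 CPM of 3 or more, 10 had a positive value and 6 did not overlap in that direction (background 18.1%). The 1048 genes that rose at least 2-fold after 24 h in culture had a median of 1.51 there and of 0.02 in mice. Of these, 553 had a positive value (52.8%), 0 were called, and 158 did not overlap in the same direction (15.1%, background 14.8%). Of the 223 with a mean log2 CPM of 3 or more, 124 had a positive value and 44 did not overlap in that direction (19.7%, background 18.1%). The 273 genes that fell at least 2-fold after 24 h had a median of -1.34 there and of -0.16 in mice. In mice 183 of the 273 had a negative value (67.0%), and 2 were called lower (background 0.0328%). In 76 the groups did not overlap in that direction (27.8%, background 15.2%). Of the 46 with a mean log2 CPM of 3 or more, 39 had a negative value and 26 did not overlap in that direction (background 17.3%). The mice and the culture libraries share no sample.

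Over all genes called at 6 h in culture, 61.5% had the same sign in mice, against 52.3% of genes not called at 6 h. At 24 h these shares were 55.8% and 51.5%, and for the ENL guides 60.6% and 50.6%. By pair the share for genes called at 6 h was 48.8% in pair 1, 61.9% in pair 2 and 63.8% in pair 3, and in pair 1 the share for genes not called was 48.2%. At 24 h the shares by pair were 48.7%, 56.9% and 55.9%, and for the guides 50.8%, 64.2% and 58.9%. The shares are descriptions across genes, which are not independent.

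For granule proteins of immature myeloid cells the differences were small. Of 11 tested genes 9 had a negative value, 0 were called and 6 had an unadjusted p under 0.05, all lower (background 3.48%). The median was -0.16 and lay between -0.15 and -0.17 in the 3 pairs. The median GC content of these genes is 57.3%, and with a trend of the fold changes with GC content removed (described further on) the median was -0.07, with 3 genes at an unadjusted p under 0.05. AZU1 (azurocidin) had 725, 691 and 708 CPM with vehicle and 591, 619 and 608 CPM with MS41 (-0.22, adjusted p = 0.408). ELANE (neutrophil elastase) was at -0.22, and PRTN3 (proteinase 3) and PRSS57 at -0.16 each. All 4 had each MS41 library below each vehicle library. CTSG (cathepsin G) overlapped, at 170, 186 and 207 CPM against 218, 200 and 181 CPM, with a log2 fold change of 0.09 (interval -0.10 to 0.28); after 24 h in culture it was at -1.94.

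In the edgeR fit with the filter on low counts and the replicate term no gene was called higher. With no filter 75 were, CXCL8 and PTGER2 among them. DESeq2 also called CXCL8 (adjusted p = 4.91e-05) but not PTGER2 (0.394). No other setting called either gene, limma-voom among them (adjusted p of 0.179 for CXCL8 and 0.404 for PTGER2). By the size of the log2 fold change among genes with a mean log2 CPM of 3 or more and no overlap, CXCL8, the neutrophil chemokine interleukin 8, came first, with 5.03, 4.99 and 7.01 CPM with vehicle and 12.4, 12.4 and 8.77 CPM with MS41. Its log2 fold change was 0.98 (SE 0.18, interval 0.57 to 1.38) and its adjusted p 0.233. PTGER2, a prostaglandin E receptor, followed with 0.91 (adjusted p = 0.392), from 6.17, 7.59 and 10.1 CPM to 17.9, 15.5 and 11.3 CPM. In both genes the third pair had the smallest difference. CYSLTR2, a leukotriene receptor, was at 0.58, ALOX5AP, which activates 5-lipoxygenase in leukotriene synthesis, at 0.54, MYBL1 at 0.51, NFKBIZ at 0.48, ETAA1 at 0.45 and TRDMT1 at 0.42.

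Of 24 tested inflammatory genes under NF-kB, 0 were called, and the median was 0.18. At an unadjusted p under 0.05, 9 were higher and 0 lower (background 4.14% and 3.48%). The median was 0.35 in pair 1, 0.29 in pair 2 and -0.02 in pair 3, so the median of the list was near 0 in the third pair. DESeq2 called 2 of them higher and limma-voom 0. Beside CXCL8 and NFKBIZ, an atypical member of the I-kappa-B family, CD83 was at 0.40 and PTGS2, the inducible cyclooxygenase, at 0.52, each with the 3 MS41 libraries above vehicle. TNFAIP3, a brake on NF-kB, was at 0.52 with overlapping groups. Among 30 immediate early genes, 3 were lower and 0 higher at an unadjusted p under 0.05 (background 3.48% and 4.14%). They were ZFP36 (-0.40), JUNB (-0.27) and FOSL2 (-0.44), with edgeR adjusted p-values of 0.349, 0.379 and 0.496. DESeq2 called 2 of the 30 lower, ZFP36 (adjusted p = 0.00631) and JUNB (0.0495). The fit with no filter on low counts called 3 lower and limma-voom 0. ZFP36 encodes tristetraprolin, a relative of ZFP36L2.

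Of 39 tested mitosis genes, 0 were called (1 higher with DESeq2, 0 with limma-voom), 35 had a positive value, and the median was 0.09. At an unadjusted p under 0.05, 10 were higher and 0 lower (background 4.14% and 3.48%). TTK, a kinase of the spindle checkpoint, had 31.2, 31.4 and 31.8 CPM with vehicle and 39.7, 39.2 and 39.0 CPM with MS41 (0.32, adjusted p = 0.34). ECT2 was at 0.21, HMMR at 0.20, KIF11 at 0.17 and TOP2A at 0.16. Of 48 S phase genes 38 had a positive value with a median of 0.05, and CDC6 and EXO1 were at 0.16 and 0.18. The median GC content of the mitosis genes is 43.2%, and with the GC trend removed their median was 0.08, with 2 genes higher and 1 lower at an unadjusted p under 0.05 in place of 10 and 0.

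Lists of growth and metabolism had medians near 0. The 55 MYC targets, of which 55 were called lower at 24 h in culture (background 22.8%), had a median of -0.04 in mice. There 0 were called and 42 of the 55 had a negative value. At an unadjusted p under 0.05, 4 were lower and 0 higher (background 3.48% and 4.14%). In 13 each MS41 library was below each vehicle library, and in 1 above (background 15.2% and 14.8%). The median was 0.007 in pair 1, -0.10 in pair 2 and -0.03 in pair 3. CAD, the first enzyme of pyrimidine synthesis, and SRM, spermidine synthase, were both at -0.14. Of 75 ribosomal protein genes 73 had a negative value and 41 had each MS41 library below each vehicle library (background 15.2%), but the median was -0.08 and 0 were called; it was -0.20 in pair 3 and -0.02 and -0.04 in the other pairs. The 61 nuclear genes of oxidative phosphorylation had a median of -0.03. All 13 protein genes of the mitochondrial genome had positive values with a median of 0.06. All genes of that genome, not these 13 alone, made up 6.84% to 7.04% of all counts with vehicle and 7.05% to 7.25% with MS41.

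Of 40 tested interferon-stimulated genes, 3 were lower and 1 higher at an unadjusted p under 0.05 (background 3.48% and 4.14%). The median was -0.06, beside 0.89 at 24 h in culture. IFIT2 was at -0.89 in mice, from 1.90 to 1.03 CPM, and IFITM1 at -0.40; SAMD9 was at 0.26. Among 18 tested genes of homing and adhesion, 0 were called, 13 had a negative value and 5 a positive one, and the median was -0.05. At an unadjusted p under 0.05, 3 were lower and 2 higher (background 3.48% and 4.14%). CXCR4, the receptor that holds cells in the bone marrow, had 148, 152 and 166 CPM with vehicle and 140, 136 and 124 CPM with MS41 (-0.22, adjusted p = 0.552). ITGA4, the integrin alpha 4 chain, was at -0.19. Of 29 p53 targets 4 were higher and 1 lower at an unadjusted p under 0.05 (background 4.14% and 3.48%), with PLK2 at 0.30. XIAP, an inhibitor of caspases, was at 0.29 (edgeR adjusted p = 0.349).

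**Figure D3:**
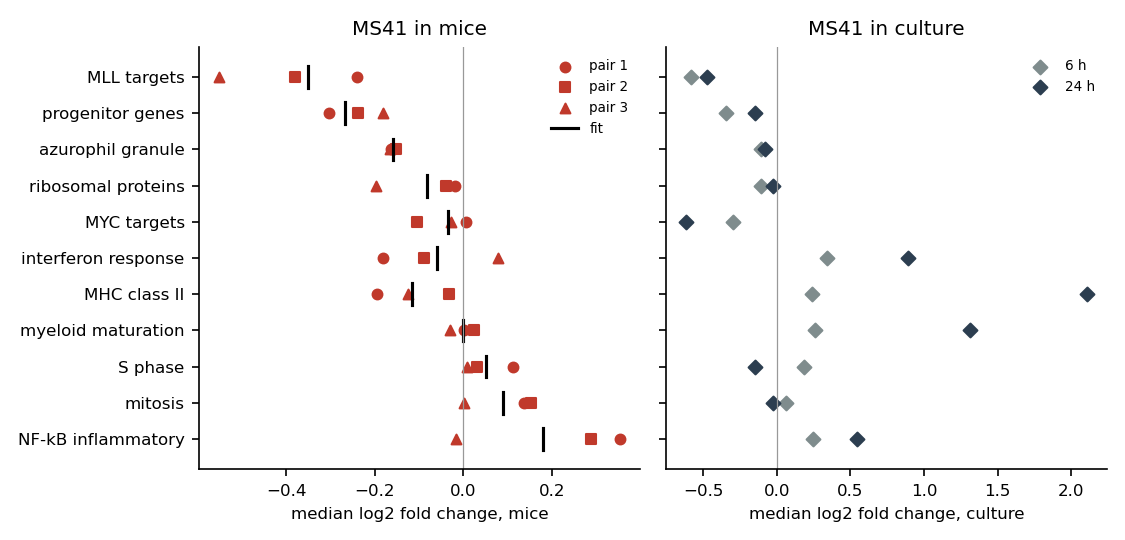
Median log2 fold change of 11 gene lists with MS41 in mice (left; red symbols are the 3 pairs, the black bar is the fit over all 6 libraries) and in culture after 6 and 24 h (right), on different horizontal scales. The MLL targets are negative in all 3 pairs and both times, and the maturation genes are at -0.0017 in mice and at 1.31 after 24 h in culture.

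The libraries held between 99.48 and 126.7 counts in units of 1000000 after the authors' adjustment. Genes that mark the line were present, among them PTPRC, SPI1, CD33, FLT3 and LYZ. Most markers of other cells were near 0, with exceptions named here: MS4A1, VPREB1, CD2, CD3E, PPBP, PF4, KDR, COL1A2 and COL3A1 were at 0 in all 6 libraries, and the summed level of 8 B-lineage markers was 3.1 to 3.8 CPM with vehicle and 3.79 to 4.54 CPM with MS41. For 12 stromal and endothelial markers the sums were 2.82 to 3.28 and 2.63 to 3.18 CPM, for 12 erythroid and megakaryocyte markers 2.1 to 2.27 and 1.58 to 1.77 CPM, and for 6 liver and kidney markers 8.86 to 11.8 and 9.45 to 12.5 CPM. The 10 T and NK markers summed to 338 to 367 CPM over both groups, nearly all of it CD4, which myeloid cells express too. NKG7, on that list, had 17.99, 19.45 and 19.40 CPM with vehicle and 16.7, 15.4 and 15.5 CPM with MS41, close to the level of MPO (14.4 to 17.4 CPM) on the list of the line itself, and its part in any result was not tested. SERPINA1 made up most of the liver list, at 8.39 to 12.4 CPM. Reads were aligned to a human build and counted on human genes. Low levels of these markers thus do not show that cells of the host mice were absent. In bulk RNA, fewer cells of a type and less RNA per cell cannot be told apart.

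The log2 fold changes followed the GC content of the genes. The median was 0.09 for 3041 genes of at most 40% GC and -0.08 for 2790 genes above 60%, and the step went the same way in all 3 pairs. Over the 9514 genes with a mean log2 CPM of 3 or more, Pearson's r with GC content was -0.50, and it was -0.31, -0.15 and -0.56 in pairs 1, 2 and 3. The MLL targets have a median GC content of 45.8%, in a range (45% to 50%, 4191 genes) whose median log2 fold change was 0.0013. With the trend removed, HOXA9, CXorf21, CPEB2, ZFP36L2 and HMX2 remained called and PITX1 and HMX3 (GC content 68.9% and 70.9%) did not, though both still had negative values (-0.65 and -0.87). The median of the MLL targets was then -0.38, with 16 of the 24 lower at an unadjusted p under 0.05, as were 602 of all 21323 genes. The fold changes of the pairs themselves correlated weakly across these genes, with r of 0.23, 0.20 and 0.15, and genes that share a GC content are not independent.

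**Figure D4:**
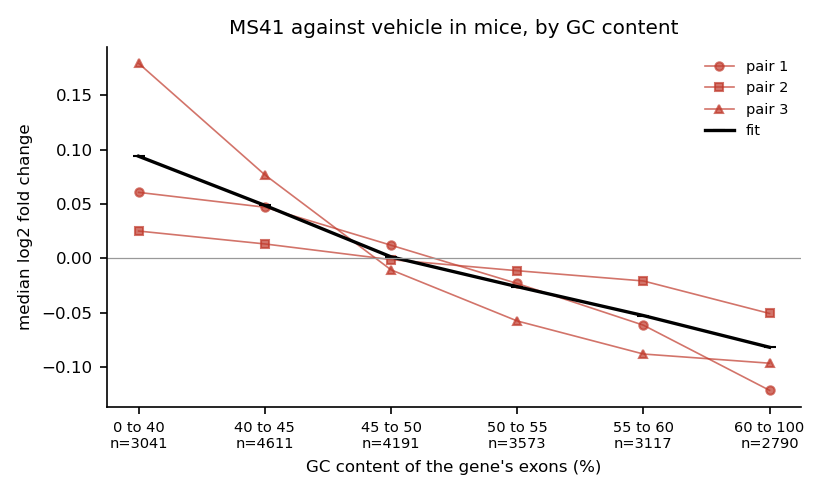
Median log2 fold change of MS41 against vehicle in mice for genes grouped by GC content. Pairs are red and the fit over all 6 libraries is black, with the number of genes under each group. GC content is that of the longest transcript of a gene, which the axis label calls its exons. The fit falls from 0.09 at low to -0.08 at high GC content, and pair 3 has the highest value at low GC content.

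Some genes were at 0 in all libraries of 1 group: 11 tested genes at 0 with vehicle and 1 at 0 with MS41. HSD17B14, a steroid dehydrogenase, had 0 counts in each vehicle library and 35, 36 and 43 adjusted counts in the MS41 libraries. Against an assumed floor of 3 counts per vehicle library that is 12.9-fold higher, with an edgeR adjusted p of 0.0705. How the authors' adjustment treats a count of 0 is not stated, so the depth behind these zeros is not known. The ratio is therefore not a lower bound.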

How the data were processed

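Per the submitters' processing notes, the authors used CASAVA 1.8, HISAT2 2.1.0 and HTSeq 0.11.3 with build hg38. The deposited culture and guide tables hold whole-number counts per gene. The deposited in vivo values are whole numbers too, but were taken to be expected counts, because the values themselves show that the authors adjusted them by replicate number, which no label mentions: over 5922 genes the median SD of the mean log2 value of a same-number pair was 0.00203 over the 3 numbers, against 0.0261 to 0.0424 for the 5 other matchings, and the deviations of pair members correlated between -0.999 and -0.996. This shows that the numbers tie the libraries, so the fit has a replicate term, and SDs within a group are those left after the adjustment. Since the deviations of a pair mirror each other, 3 pairs of the same sign nearly always leave groups that do not overlap. Nothing says that replicates are separate mice or cultures, so p-values may measure technical spread.

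Genes were filtered with filterByExpr, scaled by TMM and fitted with the robust quasi-likelihood test of edgeR 4.0.16 (in vivo on its own, 2 residual degrees of freedom, 8.67 prior degrees of freedom, biological coefficient of variation 13.0%; the 24 culture libraries in 1 fit; the guides in 1 fit). P-values were adjusted by the Benjamini-Hochberg method over all genes tested, and genes under 0.05 are called. Fold changes use TMM-scaled libraries, and CPM are counts per 1000000 of those. DESeq2 1.42.0 and limma 3.58.1 (voom) were alternatives; scripts were tested on simulated data. Gene positions and GC content come from GENCODE 29 (GRCh38), less 45 copies of pseudoautosomal genes, and promoter windows from RefSeq. GC content is that of the longest transcript of a gene. The SEMK2, MS41N and PFI-6 comparisons were not analysed here. Members, gene lists and tests were chosen with earlier results of these data known. Genes named are those called, the 12 largest rises and falls among non-overlapping genes with a mean log2 CPM of 3 or more, genes that had moved in culture, list members by lowest p or by textbook role, and the neighbours of called genes, which were chosen after their values were seen.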

Additional observations from a re-analysis of the deposited data

Results flagged for a closer look

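For 13 of the 102 named genes (12.7%), the 3 MS41 libraries from mice lay on 1 side of the 3 vehicle libraries. Their 3 same-number pairs had that sign too, which is nearly the same observation. In these genes the 3 MS41 libraries of 24 h in culture all lay on the opposite side of DMSO. Over all 21323 tested genes the share was 6.62%. The named genes were chosen in part for groups that do not overlap, for low p in mice or for a change in culture. Their share therefore cannot be read against that of all genes. The difference between mice and culture was not tested, and no gene among the 13 was called in mice. Lower in mice and higher at 24 h in culture were HLA-DRA (-0.13 in mice, 2.77 in culture), CD74, the invariant chain of MHC class II (-0.10 and 1.56), IFIT2 (-0.89 and 2.93), TYROBP, an adaptor of myeloid receptors (-0.18 and 0.98), MPO, myeloperoxidase (-0.22 and 0.56), FOSL2 (-0.44 and 0.09), CXCR4 (-0.22 and 0.14) and RPL28 (-0.15 and 0.15). Higher in mice and lower at 24 h in culture were NOV, a secreted matricellular protein (0.62 and -1.5), CDC6 (0.16 and -0.44), TMEM67 (0.53 and -0.16), HMMR (0.20 and -0.11) and EXO1 (0.18 and -0.08). RPL28 and TMEM67 were not called in culture. The NOV libraries had 7.94, 8.56 and 11.3 CPM with vehicle and 16.3, 15.3 and 11.4 CPM with MS41, so in the third pair the values were nearly equal.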

How the results depend on the processing

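The count of called genes in mice depended on the fit. With no replicate block the count was 523 (273 higher and 250 lower), beside 7 with the block. The pairing by number comes from the authors' adjustment, and without the term the spread is estimated as if the libraries were untied. No filter on low counts gave 184 calls, DESeq2 69 and limma-voom 18, each with all 7 genes among them; other size factors gave 7, the non-robust fit 9 and the removal of the GC trend 5. Leaving out each replicate number in turn gave 0 to 17 calls: 17 without replicate 1 (all 7 kept), 10 without replicate 2 (4 kept) and 0 without replicate 3, where adjusted p-values of the 7 genes ranged from 0.172 (HOXA9) to 0.262 (CPEB2). All 7 genes had negative values under each of these 10 alternatives. With the GC trend removed, MLLT1 turned to 0.041 and SAMD9L, an interferon-induced gene, from 0.05 to -0.042. Leaving out a replicate turned the sign of genes that were close to 0 or low: the ranges were -0.12 to 0.061 for MLLT1, -0.010 to 1.17 for MLLT3, -0.086 to 0.048 for CDK6, -0.24 to 0.45 for LSP1, -0.42 to 0.12 for JAML, -0.11 to 0.0083 for CSF1R, -0.23 to 0.024 for LYZ, -0.26 to 0.024 for CIITA, -0.044 to 0.23 for CTSG, -0.10 to 0.055 for PSAT1 and -0.18 to 0.23 for SAMD9L. Among the guides 1853 genes were called, 3203 with a replicate block, 2802 with no filter on low counts, and 941 to 2618 with a library left out: 941 without replicate 2 of ENL guide 2 and 1014 without replicate 2 of the control guide. The counts at 6 and 24 h in culture stayed within 1.5 times, and the shares of same-sign genes stayed above 50% under each alternative fit, though pair 1 alone was below it for 6 h (48.8%) and 24 h (48.7%). The causes of these differences were not tested. With 3 libraries per group and a median SE of 0.0713 for genes with a mean log2 CPM of 3 or more, small differences in mice could not be called, so a missed threshold does not show that a gene was unaffected.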
